A study of Mus musculus with 3 samples.

Results

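The 7 genes described here carry tumor necrosis factor (TNF) signalling: *Tnf*, *Tnfrsf1a*, *Tnfrsf1b*, *Traf2*, *Tnfaip3*, *Nfkbia* and *Cflar*, of 32285 genes counted. They were chosen because *Tnf* was among the leading genes of a hair matrix cluster in these same data, so the *Tnf* level of hair matrix cells is given as a description and carries no test. Droplet-based scRNA-seq was performed on dorsal skin of female C3H/HeN mice, 25 weeks old, in 3 libraries: a vehicle-treated negative control (Neg), an alopecia areata model (AA), which the study induced by intradermal transfer of stimulated lymph node cells, and the same model given an antibody that neutralizes CXCL12 (AA+Ab), whose dose and timing are not given in the sources used here. The skin of 7 to 8 mice was pooled for each library and dissociated for 1 hour at 37 °C in collagenase D (0.7 mg/mL). Each group is therefore 1 library, no comparison between groups has a replicate, and every interval below is a 95% interval that covers counting error only.

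TNF is a cytokine that is made as a membrane protein and cut loose by a protease. It binds TNF receptor 1, which most cell types carry and which holds a death domain, and TNF receptor 2, which lacks one and is found mainly on immune and endothelial cells. Receptor 1 gathers adaptors and ubiquitin ligases that free the transcription factor NF-κB from its inhibitors, and NF-κB then switches on inflammatory genes together with its own inhibitors. When that arm fails, the same receptor can assemble a death complex around caspase-8. In the hair follicle, the matrix is the pool of dividing keratinocytes at the base of the bulb that builds the hair shaft and inner root sheath, and *Shh* is expressed in a part of it during growth.

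*Tnf* encodes the ligand and lies on the minus strand at chr17:35199381-35202007 of GRCm38, the assembly also called mm10. *Tnfrsf1a*, the gene of receptor 1, lies at chr6:125349362-125362484 on the plus strand, and *Tnfrsf1b*, the gene of receptor 2, at chr4:145213463-145246870 on the minus strand. *Traf2*, an adaptor of both receptors, lies at chr2:25517982-25546940 on the minus strand and overlaps the gene model Gm13433 on the other strand, which is not among the genes counted. *Tnfaip3* encodes A20, a ubiquitin-editing enzyme that dampens the receptor complex, and lies at chr10:19000910-19015657 on the minus strand. *Nfkbia* encodes IκBα, which holds NF-κB in the cytoplasm, and lies at chr12:55489410-55492647 on the minus strand. *Cflar* encodes c-FLIP, a caspase-8-like protein that blocks the death complex, and lies at chr1:58711508-58758884 on the plus strand. All 7 are protein-coding genes, and none overlaps another counted gene.

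Promoters of 300 bases (250 before and 50 after a start, RefSeq, GRCm38.p6) were searched on both strands for the kappa B decamer GGGRNWYYCC. In it R is A or G, N any base, W is A or T and Y is C or T. It is a form of the letters to which NF-κB binds, and other forms were not searched. The *Tnfaip3* promoter at its outer start (chr10:19015361-19015660, minus strand) held 2 matches, 1 on each strand, whose first bases lay 125 and 12 bases before the start. The *Nfkbia* promoter (chr12:55492598-55492897, minus strand) held 1 match, 29 bases before the start. The decamer was not found in the windows of *Tnf*, *Tnfrsf1a*, *Tnfrsf1b*, *Traf2* and *Cflar*, nor at a second, inner start of *Tnfaip3*, and 4.51% of 32851 mouse promoters of this length held it. Both sequences are shown because these 2 genes accompany *Tnf* in the cells described below, with matches in capitals and the gene strand from 5′ to 3′. A match describes letters in the window and is not a measured site.
Tnfaip3: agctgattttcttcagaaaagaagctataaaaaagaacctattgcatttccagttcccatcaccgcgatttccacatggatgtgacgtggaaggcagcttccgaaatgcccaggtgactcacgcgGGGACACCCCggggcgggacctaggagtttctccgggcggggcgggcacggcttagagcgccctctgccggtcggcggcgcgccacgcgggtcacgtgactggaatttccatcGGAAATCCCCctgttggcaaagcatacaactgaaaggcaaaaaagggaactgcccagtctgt
Nfkbia: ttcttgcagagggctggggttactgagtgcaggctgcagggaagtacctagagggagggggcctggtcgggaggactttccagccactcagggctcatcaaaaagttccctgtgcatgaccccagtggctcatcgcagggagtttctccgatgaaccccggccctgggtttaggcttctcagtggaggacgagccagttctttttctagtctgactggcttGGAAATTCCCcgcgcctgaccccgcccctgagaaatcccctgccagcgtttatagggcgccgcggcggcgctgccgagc

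The libraries held 6965 (Neg), 10879 (AA) and 10507 (AA+Ab) barcodes, with 121289374, 137290217 and 141998364 UMIs. Of these, 6582, 10433 and 9832 barcodes had mitochondrial UMIs of at most 10% and at least 200 genes, and 6215, 9525 and 9006 remained once doublets were taken out. Pairs of libraries shared 17 to 28 barcode sequences. Clusters were made without the 7 genes or the other genes of a 62-gene TNF pathway list, and were named from marker genes, so that each class is a "-like" class. The 574 hair matrix-like cells form 2 sub-clusters. In the larger (419 cells), *Aim2*, *Kcnip1* and *Wif1* led and 41.3% of cells had a *Shh* UMI, and in the smaller (155 cells), *Shh*, *Wif1* and *Scube1* led and 91.6% had one. *Tnf* was among the 10 leading genes of both. The *Shh*-positive matrix cells, those with at least 1 *Shh* UMI in either, numbered 71 in Neg, 109 in AA and 135 in AA+Ab, and the immune cells numbered 321, 599 and 603.

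*Shh*-positive hair matrix cells held *Tnf* at a nearly constant level in the 3 libraries, whereas immune cells held less of it in Neg than in AA and AA+Ab. In *Shh*-positive matrix cells the *Tnf* level, in UMIs per 1000000 UMIs of the same cells (CPM), was 175 (interval 158 to 193) in Neg, 182 (167 to 199) in AA and 187 (173 to 202) in AA+Ab. In immune cells it was 93.9 (80.4 to 109) in Neg, 191 (175 to 208) in AA and 187 (170 to 204) in AA+Ab. The matrix level was thus above the immune level in Neg, by 0.90 on the log2 scale (0.63 to 1.16), and within counting error of it in AA (-0.06) and AA+Ab (-0.00). Over the 14 settings tried, that difference stayed above 0 in Neg, between 0.10 and 1.42. In AA it ran from -0.57 to 0.37 and in AA+Ab from -0.80 to 0.59, so no order of the 2 populations held there. Single cells weighed on these levels. In AA, 1 matrix cell held 52 of 498 *Tnf* UMIs, and in AA+Ab 1 immune cell held 77 of 478. Without the top cell of each population, matrix and immune levels were 165 (150 to 181) and 187 (171 to 204) CPM in AA. In AA+Ab they were 179 (165 to 194) and 158 (143 to 174) CPM.

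The same comparison per cell was less even, since matrix cells held more UMIs each. The median UMI count of *Shh*-positive matrix cells was 27403 in Neg, 22475 in AA and 25934 in AA+Ab, against 4809, 3755 and 3722 in immune cells. A *Shh*-positive matrix cell held on average 5.42, 4.57 and 4.83 *Tnf* UMIs in these libraries, and an immune cell 0.539, 0.868 and 0.793. The hair matrix-like cells, 2.46%, 2.12% and 2.43% of the cells of Neg, AA and AA+Ab, held 4.11%, 4.14% and 4.48% of the UMIs of all genes. They held 47.1% (44.5 to 49.7), 37.6% (35.5 to 39.8) and 47.5% (45.3 to 49.7) of all *Tnf* UMIs. Immune cells held 12.1% of the *Tnf* UMIs in Neg, 26.0% in AA and 23.9% in AA+Ab. The other lower follicle classes, inner root sheath and companion layer among them, together held 27.9%, 22.6% and 21.2%. The remaining keratinocytes held 11.5%, 13.4% and 7.35%.

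Among keratinocytes, *Tnf* was concentrated in the hair matrix. Keratinocytes outside it had 5.86 CPM in Neg, 6.77 in AA and 5.24 in AA+Ab, which is 26.5, 22.9 and 33.7 times less than in all hair matrix-like cells. Ranked by the lowest of these 3 ratios, *Tnf* stood at place 19 of 14508 genes, a place that follows from how the genes were chosen. Companion layer and medulla-like cells had 20.5 CPM in Neg, 19.3 in AA and 11.8 in AA+Ab. Basal epidermis-like cells had 3.12, 4.39 and 1.82 CPM, and suprabasal epidermis-like cells 1.01, 0.919 and 1.13.

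**Figure D1:**
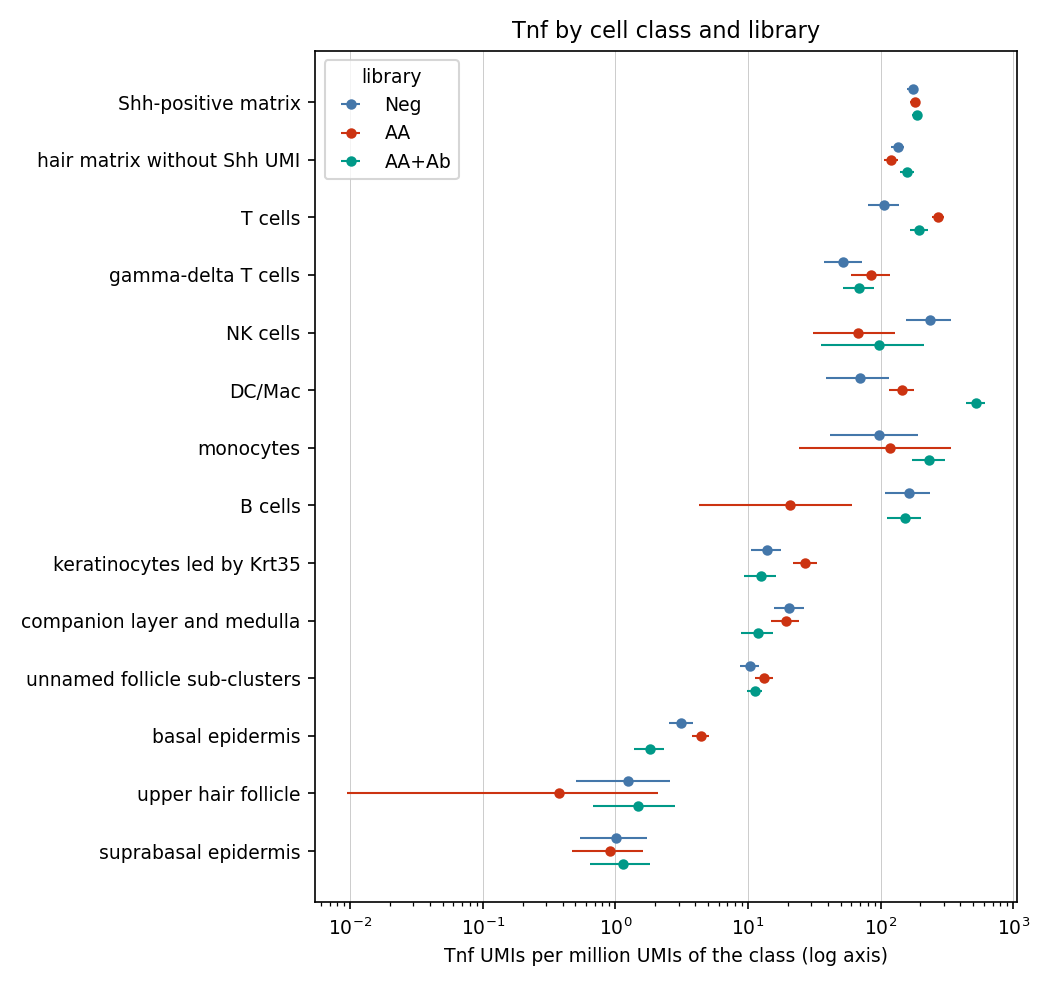
*Tnf* level (CPM, log axis) by class in Neg, AA and AA+Ab, with points for each library and bars for the 95% Poisson interval. *Shh*-positive matrix cells (175 to 187 CPM) sit among the immune classes, and the epidermal classes lie more than an order of magnitude lower. Classes with no *Tnf* UMI in a library have no point there.

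Within the immune cells, the class with the highest *Tnf* level was not the same from library to library. In Neg, NK cell-like cells had 234 CPM (156 to 339, 21 cells, 1 of which held 13 of 28 UMIs) and B cell-like cells 163 (107 to 237, 19 cells), and both intervals overlap that of *Shh*-positive matrix cells. The B cell-like cluster is mixed, with the Langerhans and DC/Mac markers *Cd207*, *Cd74* and *H2-Aa* among its leading genes. Its level is therefore not that of B cells alone. T cell-like cells had 106 CPM (80.5 to 138), monocyte-like cells 96.6 (41.7 to 190), DC/Mac-like cells 69.8 (39.1 to 115) and gamma-delta T cell-like cells 52.5 (37.2 to 72.1), in an order whose neighbours do not differ beyond counting error. The T cell-like and gamma-delta T cell-like intervals do not overlap. The cluster named monocyte-like was led by *S100a9*, *S100a8*, *Cxcl2* and *Il1b*, with *Retnlg* among its leading genes. These do not set monocytes apart from neutrophils, so every monocyte-like level given here may be that of neutrophils. In AA, T cell-like cells led with 271 CPM (245 to 300), above *Shh*-positive matrix cells at 182, followed by DC/Mac-like cells with 145 (116 to 180). Gamma-delta T cell-like cells had 85.2 CPM there.

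In AA+Ab, DC/Mac-like cells led with 523 CPM (442 to 615), a level that rests on 1 cell. That cell held 77 of the 147 *Tnf* UMIs of the 74 cells, and without it the level was 263 (205 to 333). Monocyte-like cells followed with 231 (172 to 303), T cell-like cells with 196 (168 to 228) and *Shh*-positive matrix cells with 187, and these intervals overlap. Outside keratinocytes and immune cells *Tnf* was sparse. There was 1 UMI in 163 dermal fibroblast-like cells, 3 in 171 dermal papilla-like cells, 10 in 64 endothelial cell-like cells, all 10 of them in Neg, and 0 in 162 satellite cell-like cells, a count that allows up to 3.84 CPM (3 counts over their UMIs).

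In the cells of the lower follicle, *Tnf* and *Shh* were found together. This follows in part from how the genes were chosen, since *Tnf* led a matrix cluster and a hair matrix name needed *Shh*. The levels below are therefore a description. Over the 2 clusters that were clustered again to resolve the follicle, cells with no *Shh* UMI had a *Tnf* level of 19.8 CPM in Neg, 22.1 in AA and 20.2 in AA+Ab. With 1 *Shh* UMI the level was 91.2, 81.3 and 101 CPM, with 2 to 4 it was 117, 126 and 119, and with 5 or more it was 139 (120 to 161), 215 (191 to 242) and 177 (160 to 196). The median depth of these 4 groups of cells was alike, between 25151 and 28162 UMIs in Neg. Most of this gradient is between the matrix and the other follicle cells. Inside the hair matrix-like clusters, cells without a *Shh* UMI still had 135 CPM in Neg, 120.3 in AA and 158 in AA+Ab, and the ratio of *Shh*-positive to *Shh*-negative cells was 1.30 (1.11 to 1.52), 1.52 (1.30 to 1.77) and 1.18 (1.03 to 1.36). Within them the levels at 0, 1, 2 to 4 and 5 or more *Shh* UMIs were 135, 241, 179 and 157 CPM in Neg and 158, 188, 157 and 203 in AA+Ab, in no steady order. In AA they were 120.3, 140, 156 and 220.4, but 1 cell held 52 of the 163 *Tnf* UMIs at 2 to 4, so no steady order is read there either. Without that cell the *Shh*-positive level in AA was 165 CPM (150 to 181).

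**Figure D2:**
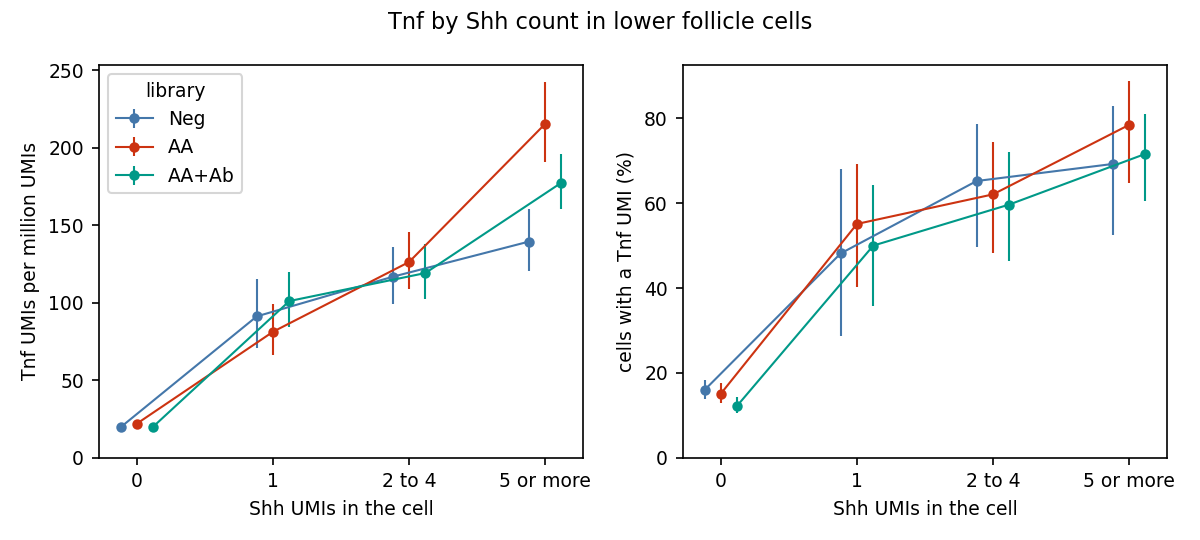
*Tnf* level (CPM, left) and percentage of cells with a *Tnf* UMI (right) in lower follicle cells grouped by their *Shh* UMIs, per library, with 95% intervals. Levels go from about 20 CPM without *Shh* to 139, 215 and 177 CPM at 5 or more *Shh* UMIs in Neg, AA and AA+Ab.

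Markers of immune cells were nearly absent from the matrix cells that held *Tnf*. *Ptprc*, which encodes CD45 on all leukocytes, had a UMI in 7 of 315 *Shh*-positive matrix cells (2.22%, 0.898 to 4.52), against 92.8% of immune cells and 0.619% of basal epidermis-like cells. Among the *Shh*-positive cells with a *Tnf* UMI, it had one in 3 of 56 in Neg (5.36%), 1 of 84 in AA and 2 of 106 in AA+Ab. The 42 immune markers summed to 42.9, 57.8 and 54.1 CPM in the *Shh*-positive cells with a *Tnf* UMI of Neg, AA and AA+Ab, against 22816, 31099 and 50355 CPM in immune cells and 53.4, 172 and 57.3 CPM in basal epidermis-like cells. Of the 42, 18, 23 and 24 were at 0 UMIs in those matrix cells. The immune values are high by construction, since immune names needed *Ptprc* and were given from the lists that hold these markers. The contrast with immune cells is therefore a description. *Shh*-positive cells with a *Ptprc* UMI held 18 of 385 *Tnf* UMIs in Neg, 7 of 498 in AA and 34 of 652 in AA+Ab, and without them the *Tnf* level was 175, 181 and 181 CPM. In the other direction, *Shh* was at 1 UMI in the immune cells of Neg, 2 in AA and 25 in AA+Ab.

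The share of cells with a *Tnf* UMI depends on depth, and was compared after each cell had been thinned to 2000 UMIs. On that basis a *Tnf* UMI was found in 21.1% of *Shh*-positive matrix cells in Neg (12.3 to 32.4), 26.6% in AA (18.6 to 35.9) and 33.3% in AA+Ab (25.5 to 42.0). In immune cells the shares were 9.76% (6.58 to 13.8), 26.1% (22.2 to 30.2) and 17.2% (14.0 to 20.8), with 34, 123 and 104 shallower cells left out. Basal epidermis-like cells had 0.479%, 0.674% and 0.33%, below the matrix and immune shares in each library. Free RNA was not measured, and its part in these shares was not tested. Before thinning the shares were 78.9%, 77.1% and 78.5% in *Shh*-positive matrix cells and 20.9%, 37.7% and 25.4% in immune cells.

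Among keratinocytes, receptor 1 was lower in the hair matrix, where the ligand was higher. *Tnfrsf1a* had 63.5, 67.4 and 64.5 CPM in the keratinocytes outside the matrix of Neg, AA and AA+Ab, and less in the hair matrix, with 22.3 (18.1 to 27.2), 20.6 (16.8 to 25.1) and 21.8 (18.0 to 26.1) CPM. *Shh*-positive matrix cells had 21.3, 14.3 and 20.1 CPM. Basal epidermis-like cells had 76.5, 76.7 and 80.4 CPM. Immune cells had 19.0 CPM in Neg, 34.5 in AA and 27.4 in AA+Ab, with 46.6, 73.5 and 74.8 CPM in DC/Mac-like cells and 24.2, 273 and 118 CPM, on 2, 7 and 26 UMIs, in monocyte-like cells.

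*Tnfrsf1b* was an immune transcript. It had 181 (162 to 201), 265 (246 to 285) and 208 (190 to 226) CPM in immune cells and 0.219, 0.225 and 0.349 CPM in keratinocytes, and immune cells held 90.0%, 95.3% and 89.2% of its UMIs. No UMI of *Tnfrsf1b* was found in the 574 hair matrix-like cells, and a count of 0 there allows up to 0.206 CPM, taken as 3 counts over their UMIs. Within the immune cells it was highest in monocyte-like cells, with 471 CPM in Neg, 702 in AA (10 cells) and 475 in AA+Ab, and high in gamma-delta T cell-like cells, with 275, 461 and 305 CPM. T cell-like cells had 103, 296 and 127 CPM.

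Of the genes inside the cell, *Traf2* differed least between classes. Its level was 23.6, 26.5 and 22.5 CPM in keratinocytes outside the matrix, 25.3, 20.4 and 18.4 in the hair matrix and 33.1, 24.2 and 29.3 in immune cells, where 61 to 75 UMIs a library leave intervals as wide as 25.3 to 42.5. The inhibitors differed more. *Tnfaip3* had 523 (490 to 557), 905 (870 to 942) and 680 (649 to 713) CPM in immune cells, with 1015 to 1208 CPM in monocyte-like cells, against 113, 123 and 94.3 CPM in the hair matrix and 111, 143 and 105 CPM in other keratinocytes. Among keratinocytes it was highest in basal epidermis-like cells, with 201, 237 and 191 CPM.

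The *Nfkbia* level differed widely among immune classes. Monocyte-like cells had 6449, 6790 and 8050 CPM of it, whereas gamma-delta T cell-like cells had 251, 157 and 107 CPM, far below T cell-like cells with 1961, 1651 and 2318. In the hair matrix *Nfkbia* was 1187 CPM in Neg, 943 in AA and 899 in AA+Ab. *Cflar*, the brake on caspase-8, was low in all keratinocytes, with 20.03, 18.3 and 18.8 CPM in the hair matrix and 21.1, 23.4 and 19.2 in the other keratinocytes. It had 83.6 (70.9 to 97.9), 114 (102 to 128) and 99.3 (87.4 to 112) CPM in immune cells, and its level in dermal fibroblast-like cells was 59.2, 117 and 87.2. Whether reads in introns were counted is not known here, so levels of different genes may depend on gene length.

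**Figure D3:**
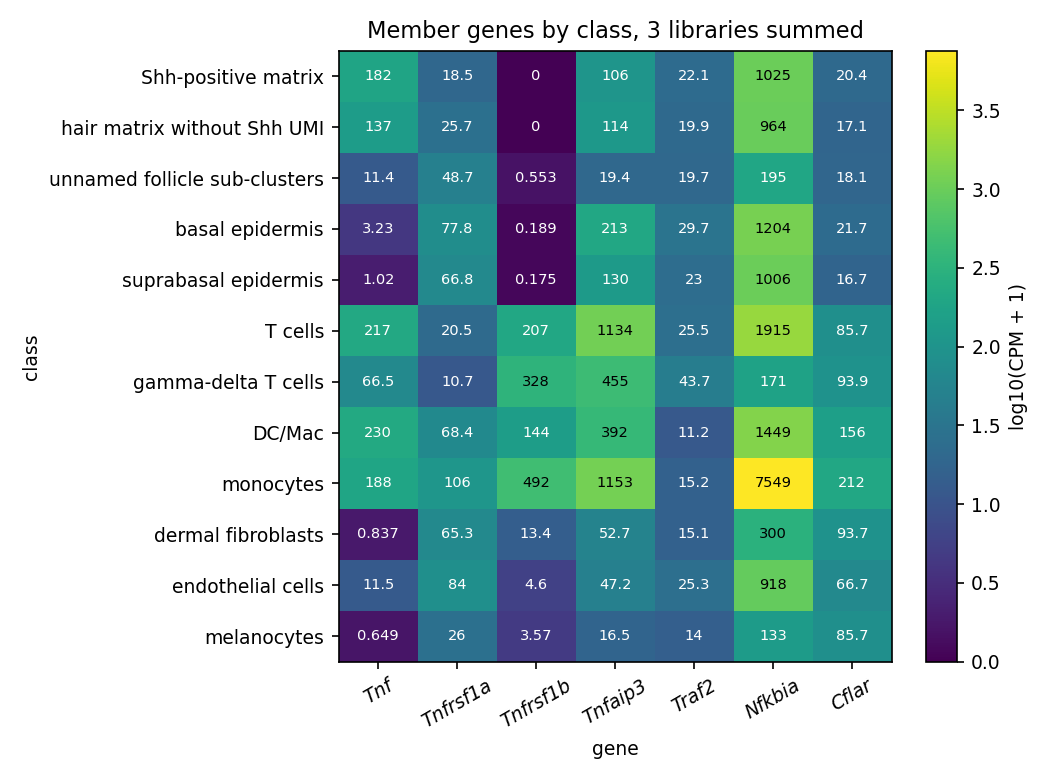
Level of the 7 genes (columns) by class (rows) over the 3 libraries summed, printed as CPM and shaded by log10(CPM + 1). *Tnf* is high in the hair matrix and in immune classes, *Tnfrsf1b* is at 0 UMIs in the hair matrix, and *Nfkbia* reaches 7549 CPM in monocyte-like cells.

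Set against immune cells, 0 of the 6 members with enough UMIs were at least 1.5-fold higher in the hair matrix in all 3 libraries, where 31.2% of 11364 genes were. *Tnfaip3* and *Cflar* were at least 1.5-fold lower in all 3, as were 23.1% of genes. The member left out of these counts is *Tnfrsf1b*, which had 0 UMIs in the hair matrix and 333, 722 and 531 in the immune cells of Neg, AA and AA+Ab. Against the keratinocytes outside it, *Tnf* was at least 1.5-fold higher, as were 20.2% of 14508 genes, and *Tnfrsf1a* at least 1.5-fold lower, as were 13.5%. Because *Tnf* chose the genes, nothing is read from these counts for *Tnf* itself.

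Of the 57 genes of the 62-gene pathway list with enough UMIs, 14 (24.6%) were at least 1.5-fold higher in the hair matrix than in other keratinocytes in all 3 libraries, near the 20.2% of all genes, and 13 (22.8%) were lower, against 13.5% of all genes. Among the higher ones were *Ltb*, a related ligand (5.29, 21.5 and 17.2 times in Neg, AA and AA+Ab), the chemokine genes *Cxcl1* (7.15, 8.02 and 5.99 times) and *Cxcl10* (9.69, 6.01 and 8.34 times), the A20-binding inhibitor gene *Tnip3* (4.95, 10.6 and 12.4 times), the NF-κB subunit genes *Nfkb1* and *Relb* and the inhibitor genes *Nfkbib* and *Nfkbie* (3.40, 4.44 and 4.14 times). Among the lower ones were the receptor genes *Tnfrsf1a* and *Ltbr*, the kinase gene *Ripk1* (0.484, 0.252 and 0.291 times), the ubiquitin ligase gene *Rnf31*, the cytokine genes *Il1b* and *Il6* and the mRNA-decay gene *Zfp36*. Against immune cells, 1 of 55 listed genes (1.82%) was higher in all 3 libraries, the protease-trafficking gene *Rhbdf1*, where 31.2% of all genes were, and 26 (47.3%) were lower, where 23.1% were.

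Inside the hair matrix, cells with a *Tnf* UMI also held more *Tnfaip3* and *Nfkbia* than cells without one. *Tnfaip3* was at 129 CPM with a *Tnf* UMI and 57.9 without in Neg, 147 and 51.0 in AA, and 106 and 53.6 in AA+Ab, which gives ratios of 2.23 (1.68 to 2.999), 2.88 (2.21 to 3.80) and 1.97 (1.51 to 2.61). *Nfkbia* was at 1393 and 468 CPM in Neg, 1114 and 429 in AA, and 1020 and 456 in AA+Ab, with ratios of 2.98 (2.70 to 3.29), 2.60 (2.37 to 2.85) and 2.24 (2.04 to 2.45). The promoters of these 2 genes are printed above because of this result. Whether their kappa B matches play a part in it was not tested. *Tnfrsf1a* was lower in the cells with a *Tnf* UMI, by ratios of 0.609 (0.392 to 0.966), 0.595 (0.389 to 0.921) and 0.698 (0.461 to 1.08), the last within counting error. In the *Shh*-positive matrix cells alone those of *Tnfrsf1a* were 0.675 (0.329 to 1.52), 1.45 (0.565 to 4.76) and 0.858 (0.478 to 1.64), with no direction beyond counting error, while *Tnfaip3* had 3.04, 4.21 and 1.60 and *Nfkbia* 3.96, 2.17 and 2.63. *Traf2*, with ratios of 0.960 to 1.11, and *Cflar*, with ratios of 1.11 to 1.18, did not differ beyond counting error.

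Basal epidermis-like cells with a *Tnf* UMI (73, 136 and 52 cells) showed the same direction for both inhibitors, with 1.79, 1.90 and 1.68 for *Tnfaip3* and 1.66, 1.79 and 1.38 for *Nfkbia*. In DC/Mac-like cells the ratios in Neg, AA and AA+Ab were 1.49 (0.787 to 2.71), 3.28 (2.56 to 4.22) and 2.50 (1.62 to 3.88) for *Tnfaip3* and 1.51, 3.09 and 4.50 for *Nfkbia*, so larger values than in the matrix occurred there. T cell-like cells had 0.955, 1.20 and 1.28 for *Tnfaip3* and 1.59, 1.31 and 1.003 for *Nfkbia*, and gamma-delta T cell-like cells 1.25, 0.921 and 0.895 for *Tnfaip3* and 1.98, 0.716 and 1.04 for *Nfkbia*. Depth and stress genes moved with these groups in the matrix. The median UMI count was 26152 with and 22279 without a *Tnf* UMI in Neg, 24896 and 18741 in AA, and 26397 and 19284 in AA+Ab. The 14 genes of a tissue dissociation list, such as *Fos*, *Jun* and *Hspa1a*, were all higher in matrix cells with a *Tnf* UMI in each library, with summed levels 1.75, 1.65 and 1.498 times those of cells without. In basal epidermis-like cells these sums were 0.907, 0.946 and 0.984 times, with 2, 4 and 6 of 14 genes higher. The part of depth and of dissociation genes in the matrix result was not tested.

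**Figure D4:**
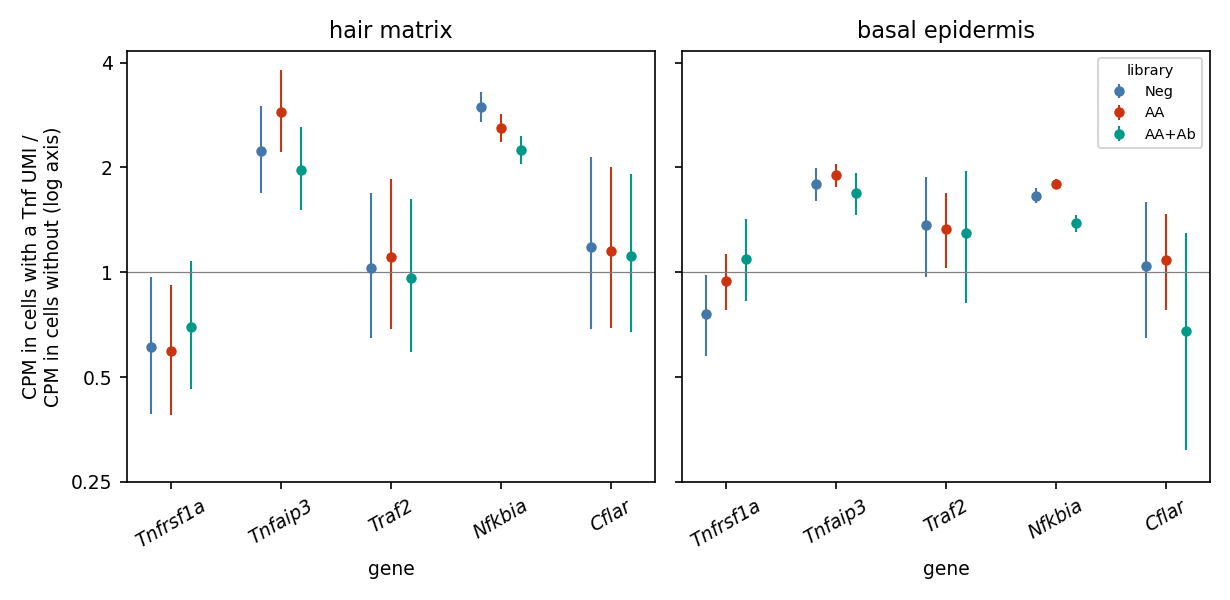
Ratio of CPM (log axis) between cells with and without a *Tnf* UMI for 5 genes in hair matrix-like (left) and basal epidermis-like (right) cells, per library, with 95% intervals. *Nfkbia* (2.24 to 2.98) and *Tnfaip3* (1.97 to 2.88) lie above 1 in the matrix and *Traf2* and *Cflar* lie near 1.

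Between AA and Neg, over all cells, *Tnfrsf1b* was the member with the largest ratio, and between AA+Ab and AA *Tnfaip3* had the lowest. The *Tnfrsf1b* level was 3.503 CPM in Neg, 6.47 in AA and 4.96 in AA+Ab, an AA/Neg ratio of 1.85 (1.63 to 2.10) and an AA+Ab/AA ratio of 0.766 (0.687 to 0.854). It was the 1 member of 7 at least 1.5-fold higher in AA than in Neg, as were 6.85% of 17594 genes, and 0 were as much lower, as were 7.21%. *Tnf* was 13.5, 17.1 and 16.7 CPM, with ratios of 1.26 (1.18 to 1.35) and 0.976 (0.917 to 1.04), and *Tnfaip3* was 116, 160.4 and 116 CPM, with ratios of 1.38 (1.35 to 1.41) and 0.725 (0.710 to 0.741). The other 4 members had AA/Neg ratios of 1.06 to 1.16. Between AA+Ab and AA, 0 members passed 1.5-fold either way, where 5.08% of genes were higher and 9.4% lower, and between AA+Ab and Neg 0 did, where 3.77% were higher and 7.41% lower. The 3 comparisons between libraries share their libraries in pairs and are not independent.

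These sums mix cell composition with levels within cells. Immune cells were 5.16% of the cells in Neg, 6.29% in AA and 6.70% in AA+Ab. When the classes were weighted to the shares they have in Neg, the log2 AA/Neg ratio went from 0.34 to 0.23 for *Tnf*, from 0.88 to 0.74 for *Tnfrsf1b* and from 0.46 to 0.23 for *Tnfaip3*. The median log2 AA/Neg ratio over all cells was 0.21 for the 7 members, 0.13 for the 62 pathway genes and -0.05 for all genes tested.

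Within the immune cells, 3 of the 7 members were at least 1.5-fold higher in AA than in Neg, *Tnf* (ratio 2.03, 1.71 to 2.43), *Tnfrsf1a* (1.81, 1.22 to 2.76) and *Tnfaip3* (1.73, 1.61 to 1.87), as were 9.26% of 9354 genes. None was as much lower, as were 11.7%. These sums also hold a shift of classes, since gamma-delta T cell-like cells were 136 of 321 immune cells in Neg and 104 of 599 in AA, and T cell-like cells 84 and 343. *Tnfrsf1b* had a ratio of 1.46 (1.28 to 1.67) and *Nfkbia* one of 1.12 (1.07 to 1.19). In T cell-like cells *Tnf* had a ratio of 2.55 (1.93 to 3.43), *Tnfrsf1b* 2.88 (2.17 to 3.89), *Cflar* 1.93 (1.30 to 2.95) and *Tnfaip3* 1.83 (1.64 to 2.05), while *Nfkbia* was lower, at 0.842 (0.783 to 0.907). The T cell-like cells held 57, 385 and 170 *Tnf* UMIs in Neg, AA and AA+Ab. In Neg, 1 T cell-like cell held 14 of those 57 UMIs, and without the top cell of each library the AA/Neg ratio was 3.24 (2.36 to 4.56).

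The AA+Ab library differed from AA in the opposite direction for several members of T cell-like cells. The AA+Ab/AA ratio was 0.429 (0.344 to 0.530) for *Tnfrsf1b*, 0.631 (0.459 to 0.857) for *Cflar*, 0.723 (0.5997 to 0.868) for *Tnf* and 0.821 (0.759 to 0.889) for *Tnfaip3*, and 1.40 (1.32 to 1.49) for *Nfkbia*. In DC/Mac-like cells *Tnf* and *Tnfrsf1b* went the other way, and *Nfkbia* the same way as in T cell-like cells. *Tnf* had an AA+Ab/AA ratio of 3.61 (2.74 to 4.78), or 2.08 (1.48 to 2.94) without the top cell of each library, *Tnfrsf1b* 2.004 (1.39 to 2.89) and *Nfkbia* 1.78 (1.60 to 1.98). Over all immune cells, the *Tnf* ratio was 0.980 (0.864 to 1.11), and 0.844 (0.739 to 0.964) without the top cells. No member of the immune cells passed 1.5-fold between AA+Ab and AA, where 9.13% of genes were higher and 10.3% lower, and *Nfkbia* had the largest ratio, 1.42 (1.36 to 1.48). Against Neg, *Tnf* (1.99) and *Nfkbia* (1.59) passed it in AA+Ab, as did 6.28% of genes, and 0 members were as much lower, as were 7.84%.

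In hair matrix-like cells, 0 of 6 members passed 1.5-fold in any comparison of libraries. Of 10297 genes, 5.02% were higher and 3.22% lower in AA than in Neg, 2.56% and 8.63% in AA+Ab than in AA, and 3.72% and 6.74% in AA+Ab than in Neg. *Tnf* had an AA/Neg ratio of 1.00 (0.902 to 1.11) and an AA+Ab/AA ratio of 1.14 (1.03 to 1.25), *Nfkbia* 0.794 (0.763 to 0.826) and 0.953 (0.915 to 0.993), and *Tnfaip3* 1.08 (0.959 to 1.22) and 0.769 (0.682 to 0.867). Whether the AA/Neg ratios of *Tnf* in immune and hair matrix-like cells differ between mice cannot be tested with 1 library per group. In all keratinocytes, *Tnfaip3* was 111, 142 and 105 CPM, with ratios of 1.28 (1.25 to 1.31) and 0.739 (0.721 to 0.756), and 0 of 7 members passed 1.5-fold between AA and Neg, where 4.76% of 16529 genes were higher and 6.71% lower. In AA+Ab, *Tnfrsf1b* passed it against AA (ratio 1.56, 0.921 to 2.67), as did 4.27% of genes, and against Neg (1.59, 0.924 to 2.81), as did 2.33%, on 22 to 40 UMIs a library and within counting error of 1, and 0 members were as much lower, where 8.71% and 7.51% were. The dissociation list summed to 19512, 22446 and 18615 CPM in the keratinocytes outside the matrix of Neg, AA and AA+Ab, the same order of libraries as *Tnfaip3* in keratinocytes, and to 10159, 10057 and 7306 CPM in the hair matrix, where it was lowest in AA+Ab as *Tnfaip3* was. Its part in these results was not tested.

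**Figure D5:**
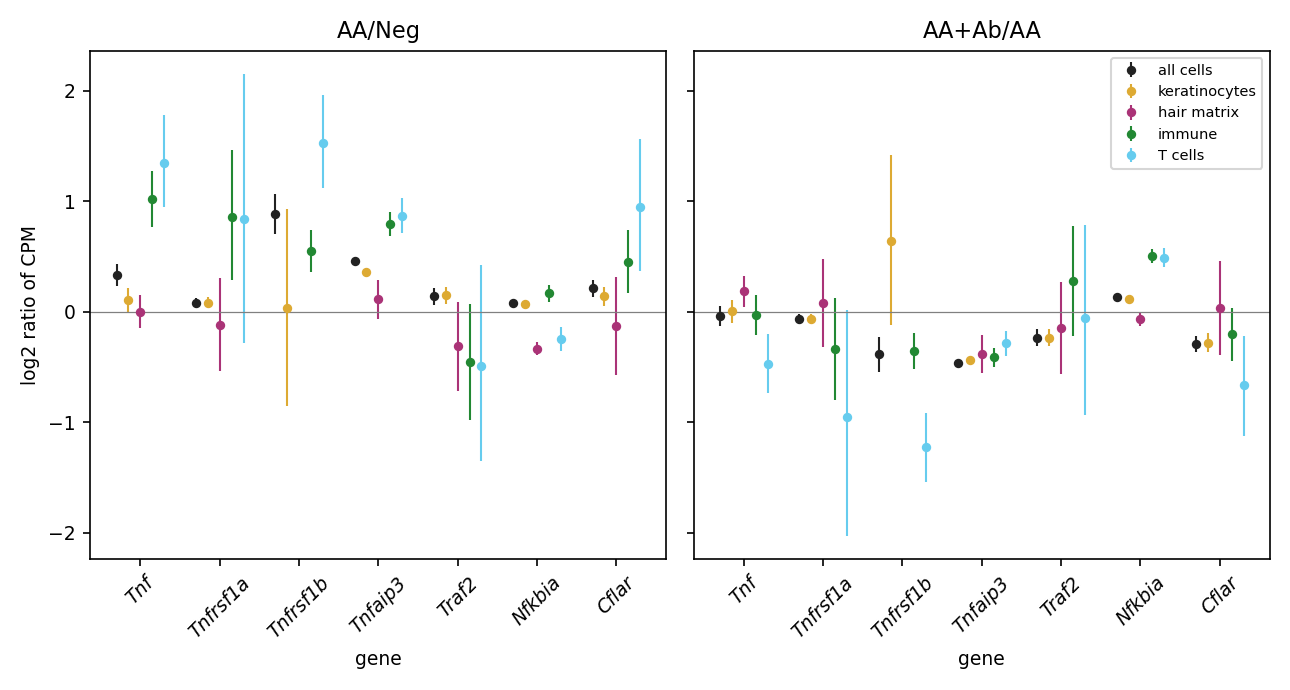
Log2 ratio of CPM for the 7 genes between AA and Neg (left) and AA+Ab and AA (right), in all cells, keratinocytes, hair matrix-like, immune and T cell-like cells, with 95% intervals. *Tnf* lies at 1.02 in immune cells and 0.00 in hair matrix-like cells on the left, and a gene with no UMI in a library has no point.

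In the pathway list, 7 of 62 genes (11.3%) were at least 1.5-fold higher in AA than in Neg over all cells, against 6.85% of all genes, and 0 were lower, against 7.21%. Besides *Tnfrsf1b* these were *Il6* (4.27 against 1.18 CPM), the monocyte attractant *Ccl2* (6.12 against 2.60), *Bcl3* (33.6 against 17.1), the necroptosis gene *Mlkl* (1.61 against 0.975), *Ripk1* and *Rnf31*. Between AA+Ab and AA, 2 were higher, the neutrophil attractant *Cxcl2* (52.1 against 9.35 CPM) and *Il1b* (28.4 against 8.70), and 6 were lower, among them *Cxcl10* (15.6 against 28.5) and *Nfkb1* (162 against 264). These counts, 3.23% and 9.68% of the list, are near the 5.08% and 9.4% of all genes. Both genes that were higher are leading genes of the monocyte-like cluster, which may hold neutrophils and had 10 cells in AA and 83 in AA+Ab. *Il1b* is also on the marker list that named this cluster. The part of this shift of cells in the 2 ratios was not tested.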

How the data were processed

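Cells of pooled dorsal skin were captured with 10x 3′ v3.1 chemistry, 1 library per group. The authors aligned reads to mm10 and counted UMIs with Cell Ranger 7.2.0, and the submitters' processing notes also name FastQC 0.11.7. The annotation release and the counting of intron reads are not given in the sources used here. What the authors deposited are unnormalized UMI counts for each gene in each barcode.

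Kept barcodes had at most 10% of UMIs from mitochondrial genes and at least 200 genes. Doublets were then removed, scored against 2 simulated doublets per cell in 20 principal components and taken at 0.8% per 1000 barcodes. Cells were clustered on 2000 variable genes without the 62 pathway genes, with 30 principal components, 20 neighbours and resolution 0.8 (leidenalg 0.10.2, igraph 0.11.9, scikit-learn 1.9.0, numpy 2.4.6, scipy 1.17.1, pandas 2.3.3, matplotlib 3.10.9, Python 3.11.15), which gave 32 clusters. The study's methods name DoubletFinder for doublets and its classes are not in the files used here, so classes may differ from the study's. Of these clusters, 2 mixed follicle clusters were clustered again in 15 components into 11 sub-clusters. A name needed 3 markers, each in at least 10% of cells and 2-fold above other cells, with 5 added to each CPM. Hair matrix names also needed *Shh*, and immune names needed *Ptprc* in at least 50% of cells. These limits were chosen with the clusters in view. Inner root sheath, outer bulge and cycling keratinocyte classes are not reported singly, because they include clusters whose leading genes held more markers of another class than of their own.

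UMIs were summed per class and library and scaled by the total UMIs of those cells (CPM). Sums have exact Poisson, shares Clopper-Pearson and ratios exact conditional intervals at 95%, and 0 counts are read as at most 3. With 1 library per group there is no test. Counts of genes past 1.5-fold use genes with at least 60 UMIs over the 3 libraries. Besides the 7 members, genes named are the pathway genes among the 5 largest or 5 smallest ratios of a comparison, listed genes past 1.5-fold, the 5 genes most like *Tnf*, *Shh*, and marker and dissociation genes. Some of the listed pathway genes named for the hair matrix, as examples of their role, were chosen after their values were seen. The members and lists were chosen with earlier results of these data known. Ratios were run on simulated Poisson counts in which 200 genes were changed between AA and Neg by at least 2-fold, up or down. The right direction was found for 200 over all cells (17594 genes), 200 in immune cells (9354 genes) and 200 in hair matrix-like cells (10297 genes). The interval held the fold made for 196, 186 and 191 of them. Smaller folds and the spread between cells or mice were not simulated, so this checks the calculation only. Alternatives covered doublets, filters, denominators, resolution, class definitions, thinning and class weights.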

Additional observations from a re-analysis of the deposited data

How the results depend on the processing

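Of 348 values recomputed under an alternative, 248 stayed within the spread allowed and 5 changed sign. The log2 difference of *Tnf* between *Shh*-positive matrix and immune cells kept its sign in Neg. In Neg, AA and AA+Ab it was 1.42, 0.25 and 0.59 with doublets kept, 0.10, -0.57 and -0.80 with classes set by marker UMIs in each cell, and 1.28, 0.15 and 0.53 after thinning to 2000 UMIs per cell. In AA it was 0.37 at a clustering resolution of 1.5, -0.30 over all cells of the matrix clusters and -0.28 without the 5 cells with the most *Tnf* UMIs of each population, and in AA+Ab it was 0.32 without those cells and 0.20 without mitochondrial, ribosomal protein and hemoglobin genes in the denominator. The *Tnf* level of *Shh*-positive matrix cells in Neg, AA and AA+Ab was 239, 244 and 258 CPM with that denominator, 92.9, 124 and 113 with classes by marker UMIs, and 142, 144 and 163 without the 5 top cells. It was 155 in Neg and 155 in AA over all matrix cells, 164 in AA at resolution 1.5, and 229 in AA and 229.6 in AA+Ab after thinning. Pathway genes at least 1.5-fold lower in AA than in Neg numbered 1 in place of 0 with doublets kept, with a mitochondrial limit of 5% and with that other denominator. At a fold of 2, 2 pathway genes were higher in AA than in Neg and 0 were lower in AA+Ab than in AA or in Neg, and with a minimum of 200 UMIs 0 were lower in AA+Ab than in Neg. Thinning turned the log2 AA/Neg ratio over all cells of *Tnfrsf1a* (-0.0423), *Traf2* (-0.0392) and *Nfkbia* (-4.35e-03) and the AA+Ab/AA ratio of *Tnfrsf1a* (0.0182), and class weights turned that of *Nfkbia* to -0.0251, all near 0. The cause of these shifts was not tested. Leaving out *Ptprc*-positive matrix cells, the B cell and Langerhans cluster, or immune cells without *Ptprc*, all chosen after seeing the data, moved no value beyond its spread. No paired analysis was possible because each group is 1 library. Depth limits the rare classes most, since T cell-like cells of Neg hold 57 *Tnf* UMIs and monocyte-like cells of AA 3.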

Other observations

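The genes whose levels across classes were most like those of *Tnf* were *Aim2*, *Stk17b*, *Pstpip1*, *Ltb* and *Rgs14*, among 16356 genes, by Pearson correlation of log2(CPM + 1) over 67 groups of 25 classes and 3 libraries. These groups share libraries and depth, so the correlations, from 0.81 for *Rgs14* to 0.88 for *Aim2*, are a description. *Aim2*, which encodes a sensor of cytosolic DNA, was the only one of these 5 with a hair matrix level near that of *Tnf*. It had 123, 152 and 117 CPM in the hair matrix of Neg, AA and AA+Ab, 54.8, 110.3 and 63.7 CPM in immune cells and 2.05 to 2.67 CPM in keratinocytes outside the matrix. The hair matrix levels of *Stk17b* were 32.0 to 47.0 CPM and those of *Rgs14* were 0.412 to 0.921 CPM.

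Of the related ligands, *Lta* and *Ltb* were examined here, and neither shared the matrix level of *Tnf*. *Lta*, which encodes lymphotoxin alpha, was at 1, 0 and 2 UMIs in the hair matrix-like cells of Neg, AA and AA+Ab, and at 31.5, 23.1 and 12.1 CPM in their immune cells, where 1 cell held 20 of the 58 UMIs in Neg and 1 held 21 of the 63 in AA. *Ltb* was at 3.91, 10.7 and 7.26 CPM in the hair matrix and at 272, 305 and 269 CPM in immune cells, with 502, 480.3 and 522 CPM in T cell-like cells.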
